A study of Mus musculus with 6 samples.

Results

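The genes described here are 28 genes of cholesterol synthesis and sterol handling, out of 32285 genes in the files. The rule that lists them goes by name and role in the pathway. They comprise 19 enzymes that run from acetyl-CoA to cholesterol, 5 regulators (Insig1, Insig2, Srebf1, Srebf2 and Scap), 2 sterol transport and binding proteins (Stard4 and Tmem97) and the efflux pumps Abca1 and Abcg1. They were followed across the cell types of mouse pancreatic tumours after treatment with a Hedgehog pathway inhibitor or vehicle.

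Cells build cholesterol from acetyl-CoA by way of mevalonate, farnesyl diphosphate, squalene and lanosterol. The branch point at farnesyl diphosphate also feeds the prenyl groups that anchor small GTPases in membranes. When membrane sterol is low, Scap carries the SREBP transcription factors (coded by Srebf1 and Srebf2) to the Golgi, where they are released to switch on the enzymes and the uptake genes, and when sterol is high the Insig proteins hold them back. Sterol excess acts through LXR receptors, which raise the efflux pumps Abca1 and Abcg1. Cholesterol is also the sterol that modifies Hedgehog ligands and that binds Smoothened, the receptor component which IPI-926 blocks.

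Single-cell RNA-seq libraries were made from pancreatic tumours of mice whose genotype included P53LSL.R172H/+ and Pdx1-Cre, shared by all groups. Pdx1-Cre acts in cells of the pancreatic lineage, so by design the mutant p53 allele is switched on in the epithelial lineage and not in the stroma. IPI-926, a Smoothened inhibitor, was given by oral gavage at 40 mg/kg once a day from a 5 mg/ml preparation to the mice of 3 libraries, and 3 other libraries came from mice given the vehicle, 5% (w/w) hydroxypropyl-beta-cyclodextrin in water. Dosing lasted 2 days and tumours were taken 2 hours after the last dose. Cyclodextrins bind sterols, and the labels do not say whether the inhibitor was dissolved in the same cyclodextrin. Adjacent normal pancreas was trimmed away and red cells were lysed before capture. The labels give no batch, and p-values here measure only the spread between libraries.

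The files held 62905 cell barcodes and 718531446 UMIs (unique molecular identifiers, 1 per captured transcript), between 100810942 and 174929328 a library. After filters 49797 cells remained, of which 39395 fell in clusters named from marker genes and 10402 in 9 clusters without a name. Of the named classes, ductal epithelial cells (7354), macrophages and monocytes (11821), neutrophils (7433), fibroblasts (3670), T cells (2971), mesothelial cells (1727), endothelial cells (1695), B cells (1080), dendritic cells (878) and perivascular cells (257) entered the tests. Their markers reached 50 per 1000000 UMIs of the class in 8 of 11 for dendritic cells, 14 of 15 for fibroblasts and 9 of 10 for mesothelial cells. All listed markers did so for the other 7. The naming rule also asked for detection in 25% of cells and a fold above 2 over the other cells. By that rule the dendritic cluster had 6 of 11 markers. The mesothelial cluster had 9 of 10 mesothelial and 10 of 15 fibroblast markers. The 28 genes took no part in the clustering. Pairs of libraries shared 14 to 59 barcodes. IPI-926 replicate 3 stood apart: it held all 1944 cells of a fibroblast cluster led by Crabp1, 99.4% of a macrophage cluster, 94.0% of a ductal cluster and 4065 of 4071 cells of an unnamed cluster. For the 3 genes of smallest p in a class, values without it are given beside the treatment results, where the gene passed the filter without it.

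The upstream sequences of 6 members are shown because Hmgcs1, Mvd, Nsdhl and Sc5d were called higher in ductal cells in the comparison of classes described further on, and Ggps1 and Abca1 were called lower there. The calls of Ggps1 and Abca1 did not pass under every alternative setting. Each is the 250 bases before the RefSeq transcript start in GRCm38.p6, on the gene's own strand, and none of these 6 windows overlaps the annotated gene. They lie at chr13:119690101-119690350 (plus strand, Hmgcs1), chr8:122443423-122443672 (minus, Mvd), chrX:72918271-72918520 (plus, Nsdhl), chr9:42264301-42264550 (minus, Sc5d), chr13:14063489-14063738 (minus, Ggps1) and chr4:53159896-53160145 (minus, Abca1). Capitals mark the sterol element TCACCCCAC or its looser form TCACNCCAC, the NF-Y box CCAAT and the Sp1 box GGGCGG, read on both strands, so ATTGG and CCGCCC are the reverse complements of the last 2. The looser form includes the strict one.
Hmgcs1: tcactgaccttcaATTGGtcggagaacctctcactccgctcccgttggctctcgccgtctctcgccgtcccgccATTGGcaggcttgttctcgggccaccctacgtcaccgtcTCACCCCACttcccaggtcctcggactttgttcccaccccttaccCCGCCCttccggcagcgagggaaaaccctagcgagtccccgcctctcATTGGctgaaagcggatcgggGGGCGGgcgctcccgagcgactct
Mvd: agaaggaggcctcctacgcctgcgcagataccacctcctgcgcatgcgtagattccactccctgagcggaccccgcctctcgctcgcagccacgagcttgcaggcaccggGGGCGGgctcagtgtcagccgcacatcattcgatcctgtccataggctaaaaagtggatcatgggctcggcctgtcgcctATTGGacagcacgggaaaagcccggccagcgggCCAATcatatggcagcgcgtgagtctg
Nsdhl: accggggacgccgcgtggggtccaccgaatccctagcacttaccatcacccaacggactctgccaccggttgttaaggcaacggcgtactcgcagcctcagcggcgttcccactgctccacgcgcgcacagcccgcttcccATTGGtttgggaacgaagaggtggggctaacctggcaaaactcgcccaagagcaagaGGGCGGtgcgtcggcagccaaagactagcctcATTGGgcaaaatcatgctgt
Sc5d: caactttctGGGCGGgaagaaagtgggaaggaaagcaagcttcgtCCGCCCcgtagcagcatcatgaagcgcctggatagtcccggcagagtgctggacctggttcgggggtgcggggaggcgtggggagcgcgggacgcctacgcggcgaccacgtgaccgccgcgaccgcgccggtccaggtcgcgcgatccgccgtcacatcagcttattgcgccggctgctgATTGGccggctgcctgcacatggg
Ggps1: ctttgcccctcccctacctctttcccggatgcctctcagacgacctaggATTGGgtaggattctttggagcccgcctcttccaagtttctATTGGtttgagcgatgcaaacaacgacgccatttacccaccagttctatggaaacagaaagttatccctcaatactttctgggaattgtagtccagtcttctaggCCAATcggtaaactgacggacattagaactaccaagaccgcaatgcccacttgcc
Abca1: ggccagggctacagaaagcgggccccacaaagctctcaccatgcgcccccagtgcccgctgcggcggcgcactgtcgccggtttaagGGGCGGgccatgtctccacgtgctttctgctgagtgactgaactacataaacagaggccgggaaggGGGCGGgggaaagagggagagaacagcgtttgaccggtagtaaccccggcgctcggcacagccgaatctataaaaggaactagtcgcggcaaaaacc
Hmgcs1 was the only member with the sterol element in its window. Of the 23 members with an entry in the RefSeq promoter table, that is 4.35%, against 0.555% of 27025 genes (4.35% and 1.22% for the looser form). CCAAT was present in 20 of the 23 (87.0%) and in 37.5% of all genes, and the members without it were Abca1, Acat2 and Scap. GGGCGG was present in 21 of the 23 (91.3%) and in 35.4% of all genes, and was not in the windows of Ggps1 and Pmvk. Fdft1, Fdps, Sqle, Stard4 and Abcg1 had no entry. These matches describe letters in a window and not bound sites.

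Ductal epithelial cells carried the largest summed share of UMIs from the 28 genes among the 10 classes in 5 of the 6 libraries. The share, in UMIs of the 28 genes per 10000 UMIs of the class and library, was 11.01, 12.9 and 12.7 in vehicle replicates 1, 2 and 3 and 10.7, 9.27 and 14.0 in the IPI-926 replicates. In IPI-926 replicate 2 dendritic cells (9.50) and mesothelial cells (9.42) stood just above ductal cells. Endothelial cells followed in level, at 9.53, 10.2 and 10.6 in vehicle and 9.76, 8.16 and 9.77 in IPI-926 libraries. Their share was made up differently: the efflux pumps alone gave 2.56 to 3.83 per 10000 UMIs in endothelial cells and 0.0304 to 0.458 in ductal cells. Enzymes made up 6.55 to 10.7 per 10000 UMIs in ductal cells and 3.49 to 4.76 in endothelial cells, so these ranges did not overlap either. Neutrophils stood at 5.63, 6.52 and 5.33 in vehicle and 6.25, 4.83 and 3.64 in IPI-926 libraries. They were lowest or next to lowest of the 10 classes in 5 of 6 libraries, and above 5 other classes, T cells (5.25) lowest, in IPI-926 replicate 1. Abundant members weigh most in this sum, and no test was made on it.

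**Figure D1:**
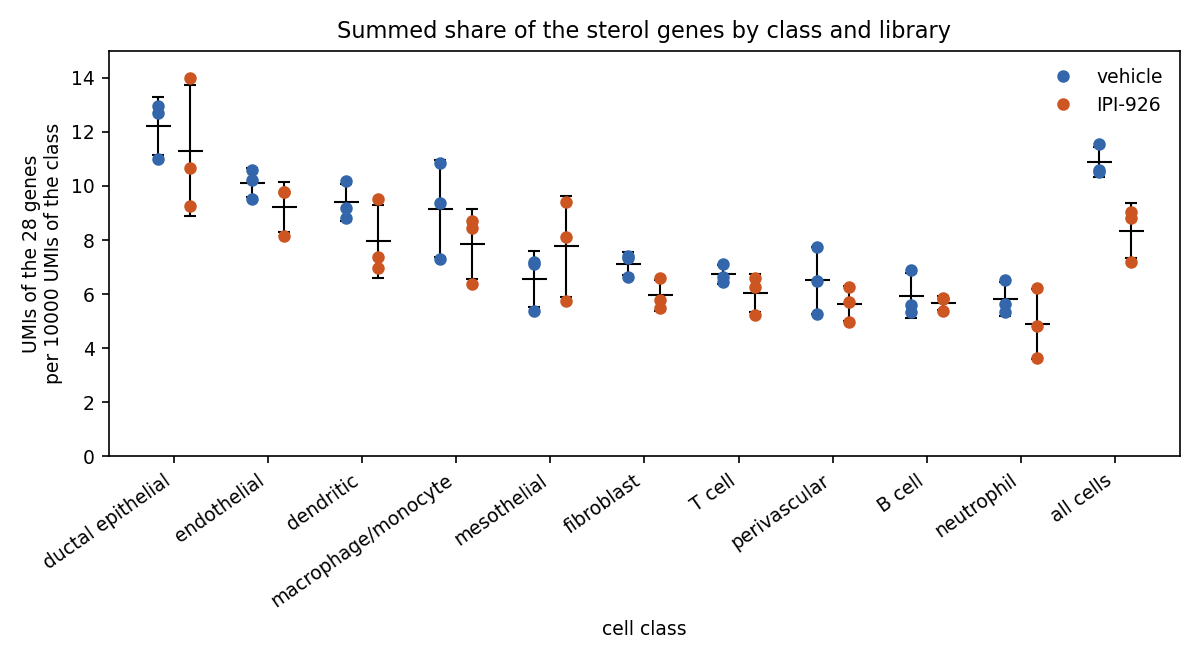
Summed share of the 28 genes per 10000 UMIs (vertical axis) in each cell class (horizontal axis), with 1 point per library, vehicle and IPI-926 in separate colours, and bars for the mean ± SD over 3 libraries. Ductal cells reach 9.27 to 14.0 and neutrophils 3.64 to 6.52, and the treatment groups overlap in every class shown except fibroblasts, and do not overlap in all cells together.

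The difference between classes was tested gene by gene on summed counts, with library as a term in the fit, over 13427 genes and 60 sums (10 classes in 6 libraries). A gene was called when its adjusted p (edgeR's quasi-likelihood test, Benjamini-Hochberg over all genes) was under 0.05, and the log2 difference sets a class against the mean of the other 9. Of 280 pairs of member and class, 69 were called higher and 55 lower. Ductal cells had 23 members higher (37.1% of all genes were called higher there) and 3 lower (22.1% of all genes). Dendritic cells had 10 higher and 2 lower, against 21.0% and 21.1% of all genes. Perivascular cells showed the opposite pattern, with 2 higher and 10 lower (21.0% and 18.4% of all genes), and neutrophils had 3 higher and 11 lower (32.0% and 29.5%). In neutrophils 22 members were lower when counts were scaled by library size alone.

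The other classes were mixed. Macrophages and monocytes had 8 members higher and 1 lower, against 31.1% and 18.2% of all genes. Mesothelial cells had 6 higher and 4 lower (32.4% and 22.1%), and the first count ran from 0 to 11 over the alternatives. Fibroblasts had 5 higher and 7 lower (31.8% and 23.1%). Endothelial cells had 4 higher and 6 lower (25.5% and 20.1%), T cells 4 and 6 (21.9% and 22.5%), and B cells 4 and 5 (17.1% and 24.5%). In these 6 classes the members were thus not called higher more often than other genes. In macrophages and monocytes, mesothelial cells and B cells they were also called lower less often than other genes, and in T cells by a small margin.

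**Figure D2:**
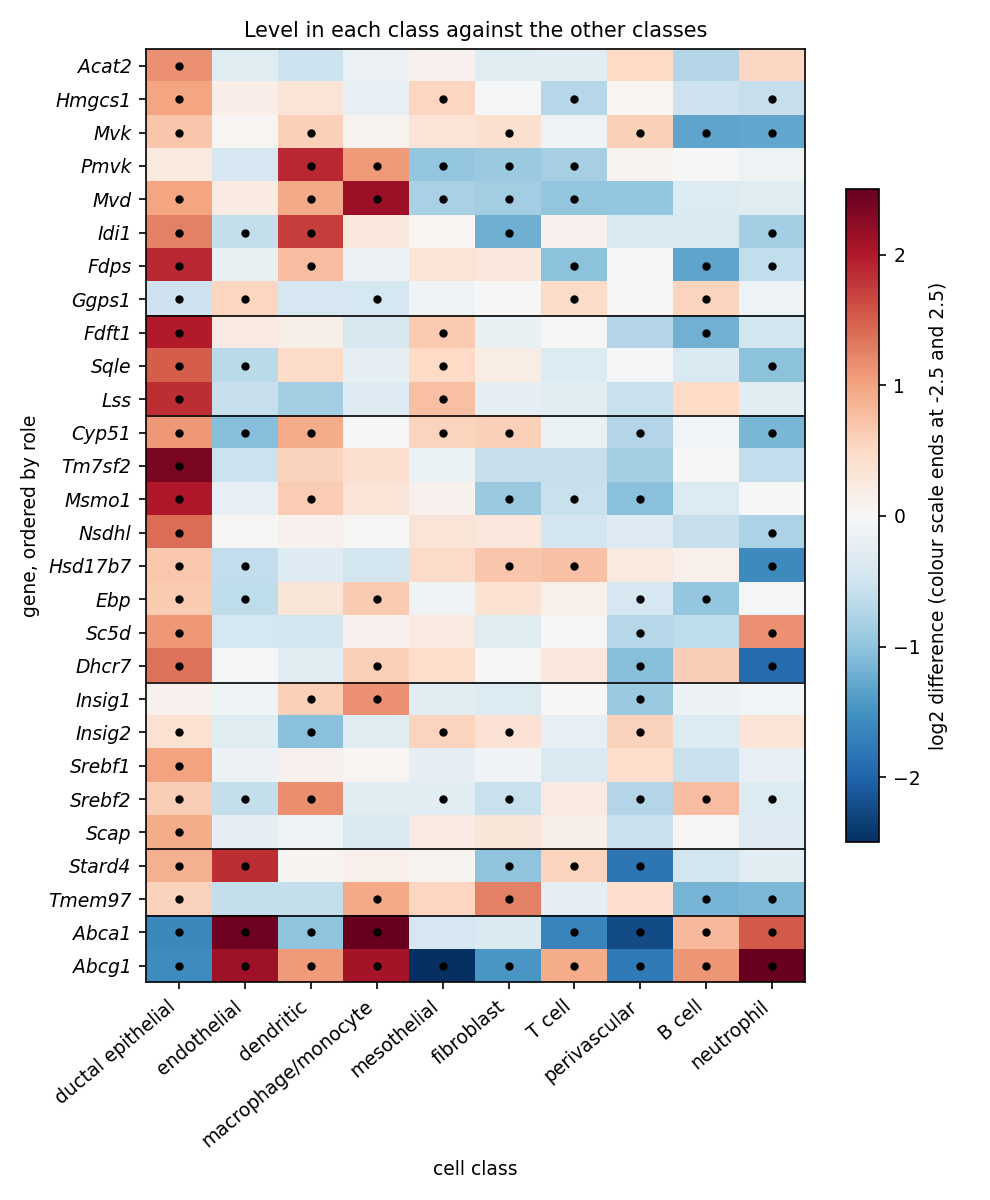
Log2 difference of each of the 28 genes (rows, ordered by role) in each class against the mean of the other 9 classes (columns), with colours cut at 2.5 in both directions and a dot where the adjusted p is under 0.05. The ductal column is positive through nearly all enzyme rows, while Abca1 and Abcg1 are positive in macrophages, endothelial cells and neutrophils and negative in ductal cells.

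The early enzymes of the mevalonate and isoprenoid steps were led in ductal cells by Fdps, the farnesyl diphosphate synthase. Its level in ductal cells was 161, 143 and 207 CPM (UMIs per 1000000, scaled across classes) in vehicle and 157, 102 and 203 CPM in IPI-926 libraries, a mean of 162 ± 39.1 CPM (SD, n = 6). Ductal cells ranked first for Fdps in 6 of 6 libraries, where ranks by library here and below are by CPM before scaling across classes. Dendritic cells came next at 81.1 ± 26.4 CPM, mesothelial cells at 64.5 ± 30.2, fibroblasts at 58.7 ± 14.0 and perivascular cells at 49.3 ± 18.8, and these 4 neighbours overlapped. B cells were lowest at 23.8 ± 15.1 CPM. The log2 difference was 1.89 in ductal cells (SE 0.17, adjusted p 6.85e-14), 0.77 in dendritic cells, -1.31 in B cells and -1.03 in T cells.

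Other early steps were not led by ductal cells. Pmvk, the phosphomevalonate kinase, was highest in dendritic cells in 6 of 6 libraries, at 81.5, 70.9 and 59.5 CPM in vehicle and 121, 94.1 and 126 CPM in IPI-926 libraries (log2 difference 1.88, SE 0.17, adjusted p 1.32e-13). Ductal cells, at 25.3 to 47.4 CPM, did not pass the test for Pmvk (log2 difference 0.25). Mvd, the mevalonate diphosphate decarboxylase, was highest in macrophages and monocytes in 5 of 6 libraries, at 51.1, 31.4 and 46.5 CPM in vehicle and 25.6, 49.0 and 13.1 CPM in IPI-926 libraries. The lowest of these, in IPI-926 replicate 3, fell below the ductal value of that library (19.4 CPM), and the log2 difference for macrophages was 2.15 (SE 0.19, adjusted p 6.46e-14). Idi1, the isopentenyl diphosphate isomerase, was led by dendritic cells in 3 libraries and by ductal cells in the other 3. It stood at 106, 119 and 75.7 CPM in vehicle and 48.1, 126 and 61.9 CPM in IPI-926 dendritic cells, with log2 differences of 1.73 in dendritic, 1.27 in ductal and -1.22 in fibroblast cells.

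Hmgcs1, which makes HMG-CoA, was higher in ductal cells (log2 difference 0.99), as were Acat2, the thiolase before it (1.14), and Mvk, the mevalonate kinase (0.69). Ggps1 leads away from cholesterol to geranylgeranyl diphosphate for protein prenylation. It was the only one of the 19 enzymes called lower in ductal cells (-0.52, SE 0.17, adjusted p 0.0073), and it was higher in endothelial cells (0.54), B cells (0.56) and T cells (0.48). Its ductal level was 10.3 to 21.1 CPM and its endothelial level 27.0 to 36.7 CPM, which did not overlap.

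All 3 enzymes that carry farnesyl diphosphate to lanosterol were higher in ductal cells. Fdft1, the squalene synthase that commits carbon to sterols, stood at 59.95, 53.0 and 87.3 CPM in vehicle and 53.9, 29.3 and 66.8 CPM in IPI-926 ductal cells. The log2 difference was 1.98 (SE 0.17, adjusted p 1.64e-14), and Fdft1 was lower in B cells (-1.20). Sqle, the squalene epoxidase, had a ductal difference of 1.51 and led in 5 of 6 libraries, the exception being IPI-926 replicate 3, where fibroblasts stood at 59.7 CPM and ductal cells at 59.5 CPM. The fibroblasts of the other 5 libraries were at 11.2 to 30.2 CPM for Sqle. Lss, the lanosterol synthase, had a ductal difference of 1.84 at low levels, 5.93 to 14.4 CPM.

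The 8 enzymes from lanosterol to cholesterol were all higher in ductal cells. Tm7sf2, a sterol reductase, had the largest ductal difference of the 28 genes, 2.35 (SE 0.21, adjusted p 4.47e-14), and was called in no other class. Its ductal level was 12.95, 10.9 and 16.8 CPM in vehicle and 6.57, 13.9 and 20.3 CPM in IPI-926 libraries, and the class next to it, macrophages and monocytes, had a mean of 3.94 ± 1.32 CPM (SD, n = 6). Msmo1, the methylsterol monooxygenase, stood at 65.6, 111 and 98.7 CPM in vehicle and 110, 56.8 and 86.9 CPM in IPI-926 ductal cells. Its difference was 1.99 (SE 0.14, adjusted p 2.07e-18), and fibroblasts (-0.93) and perivascular cells (-1.04) were lower. The remaining ductal differences were 1.40 for the sterol dehydrogenase Nsdhl, 1.36 for Dhcr7, the last reductase of 1 route to cholesterol, 1.09 for the lanosterol demethylase Cyp51, 1.08 for the desaturase Sc5d, 0.67 for the ketoreductase Hsd17b7 and 0.66 for the isomerase Ebp.

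Neutrophils were split over these late steps. Dhcr7 (-1.93), Hsd17b7 (-1.59), Cyp51 (-1.15) and Nsdhl (-0.80) were lower there, while Sc5d was higher (1.15, SE 0.20, adjusted p 1.42e-06). Sc5d in neutrophils was 42.1, 33.3 and 43.6 CPM in vehicle and 105, 29.4 and 23.2 CPM in IPI-926 libraries, a wide spread in the treated group. Cyp51 also separated the stromal classes: it was higher in fibroblasts (0.59), mesothelial cells (0.56) and dendritic cells (0.93), and lower in endothelial (-1.06) and perivascular cells (-0.72).

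Among the regulators, Srebf1, Srebf2 and Scap were higher in ductal cells (log2 differences 1.01, 0.61 and 0.93), with Scap highest there in 6 of 6 libraries. Srebf2, which codes for the SREBP that drives cholesterol genes most directly, was highest in dendritic cells at 105 ± 21.5 CPM (SD, n = 6; log2 difference 1.17, SE 0.11, adjusted p 5.57e-13). It stood there at 104, 147 and 92.0 CPM in vehicle and 102, 88.4 and 94.9 CPM in IPI-926 libraries. It was also higher in B cells (0.78) and lower in endothelial (-0.60), fibroblast (-0.55) and perivascular cells (-0.73). Insig1, itself a target of SREBP and the brake on Scap, was highest in macrophages and monocytes at 33.0, 76.2 and 38.4 CPM in vehicle and 32.0, 49.3 and 54.0 CPM in IPI-926 libraries (1.14, SE 0.16, adjusted p 3.72e-08), and did not pass the test in ductal cells (0.12). Insig2 was lower in dendritic cells (-1.04) and higher in mesothelial (0.56), perivascular (0.57), ductal (0.38) and fibroblast cells (0.35).

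Stard4, which moves cholesterol between membranes in the cytosol, was highest in endothelial cells in 6 of 6 libraries. Its endothelial level was 84.1, 100.2 and 77.9 CPM in vehicle and 75.3, 61.7 and 81.8 CPM in IPI-926 libraries, all above the highest ductal value of 53.8 CPM. The log2 difference was 1.84 in endothelial cells (SE 0.15, adjusted p 2.3e-15), 0.89 in ductal cells, -1.81 in perivascular cells and -1.01 in fibroblasts. Tmem97, a membrane protein that binds sterols and is known as the sigma-2 receptor, was higher in fibroblasts (1.26, SE 0.23, adjusted p 3.7e-06), macrophages (0.95) and ductal cells (0.57) and lower in neutrophils (-1.13) and B cells (-1.16). Fibroblast levels of Tmem97 were 22.2, 37.7 and 15.2 CPM in vehicle and 27.1, 26.3 and 37.3 CPM in IPI-926 libraries.

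The efflux pumps were lower in ductal cells, where 17 of 19 enzymes were higher (37.1% of all genes). In endothelial cells and neutrophils both pumps were higher, with 5 and 9 enzymes lower there (20.1% and 29.5% of all genes). In each of these classes 1 enzyme was higher (25.5% and 32.0% of all genes). Macrophages had both pumps and 4 enzymes higher (31.1% of all genes), and perivascular cells had both pumps and 5 enzymes lower (18.4%). The pumps did not go together in every class. T cells had Abca1 and 5 enzymes lower (22.5% of all genes), and Abcg1 and 2 enzymes higher (21.9%). Dendritic cells had Abca1 lower and Abcg1 higher, with 7 enzymes higher and 0 lower (21.0% and 21.1% of all genes). B cells had both pumps and 1 enzyme higher (17.1% of all genes) and 4 enzymes lower (24.5%). In macrophages, T cells and B cells these counts, out of 19 enzymes, were near or below the shares of all genes. In fibroblasts and mesothelial cells Abcg1 was lower and Abca1 was not called. Abca1, which loads cholesterol onto apolipoproteins, stood at 170, 298 and 175 CPM in vehicle and 272, 292 and 99.6 CPM in IPI-926 macrophages and monocytes. In endothelial cells it stood at 217, 215 and 212 CPM in vehicle and 181, 181 and 145 CPM in IPI-926 libraries, a mean of 192 ± 28.1 against 218 ± 81.2 in macrophages (SD, n = 6), so these 2 classes did not differ beyond their spread. Neutrophils followed at 115 ± 64.7 CPM and ductal cells stood at 2.43 to 29.98 CPM. The log2 differences were 2.53 in macrophages, 2.43 in endothelial cells, 1.53 in neutrophils and 0.81 in B cells, against -2.24 in perivascular, -1.66 in T, -1.61 in ductal and -1.01 in dendritic cells.

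Abcg1, which passes cholesterol to larger lipoproteins, had its highest mean in neutrophils, 104 ± 40.7 CPM (SD, n = 6), at 64.0, 118 and 81.3 CPM in vehicle and 165, 130 and 63.8 CPM in IPI-926 libraries (log2 difference 2.81, SE 0.28, adjusted p 2.6e-12). Endothelial cells (72.1 ± 11.2 CPM) and macrophages (69.8 ± 16.2 CPM) overlapped with neutrophils and with each other, and by library endothelial cells led in 3 and neutrophils in the other 3. Mesothelial cells were at the other end, at 0 to 1.18 CPM in all 6 libraries (the 0, in vehicle replicate 2, allows up to 1.31 CPM), and the log2 difference there was -5.31 (SE 0.56, adjusted p 1.29e-11). Abcg1 was called in every class, and Abca1 in all but fibroblasts and mesothelial cells.

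**Figure D3:**
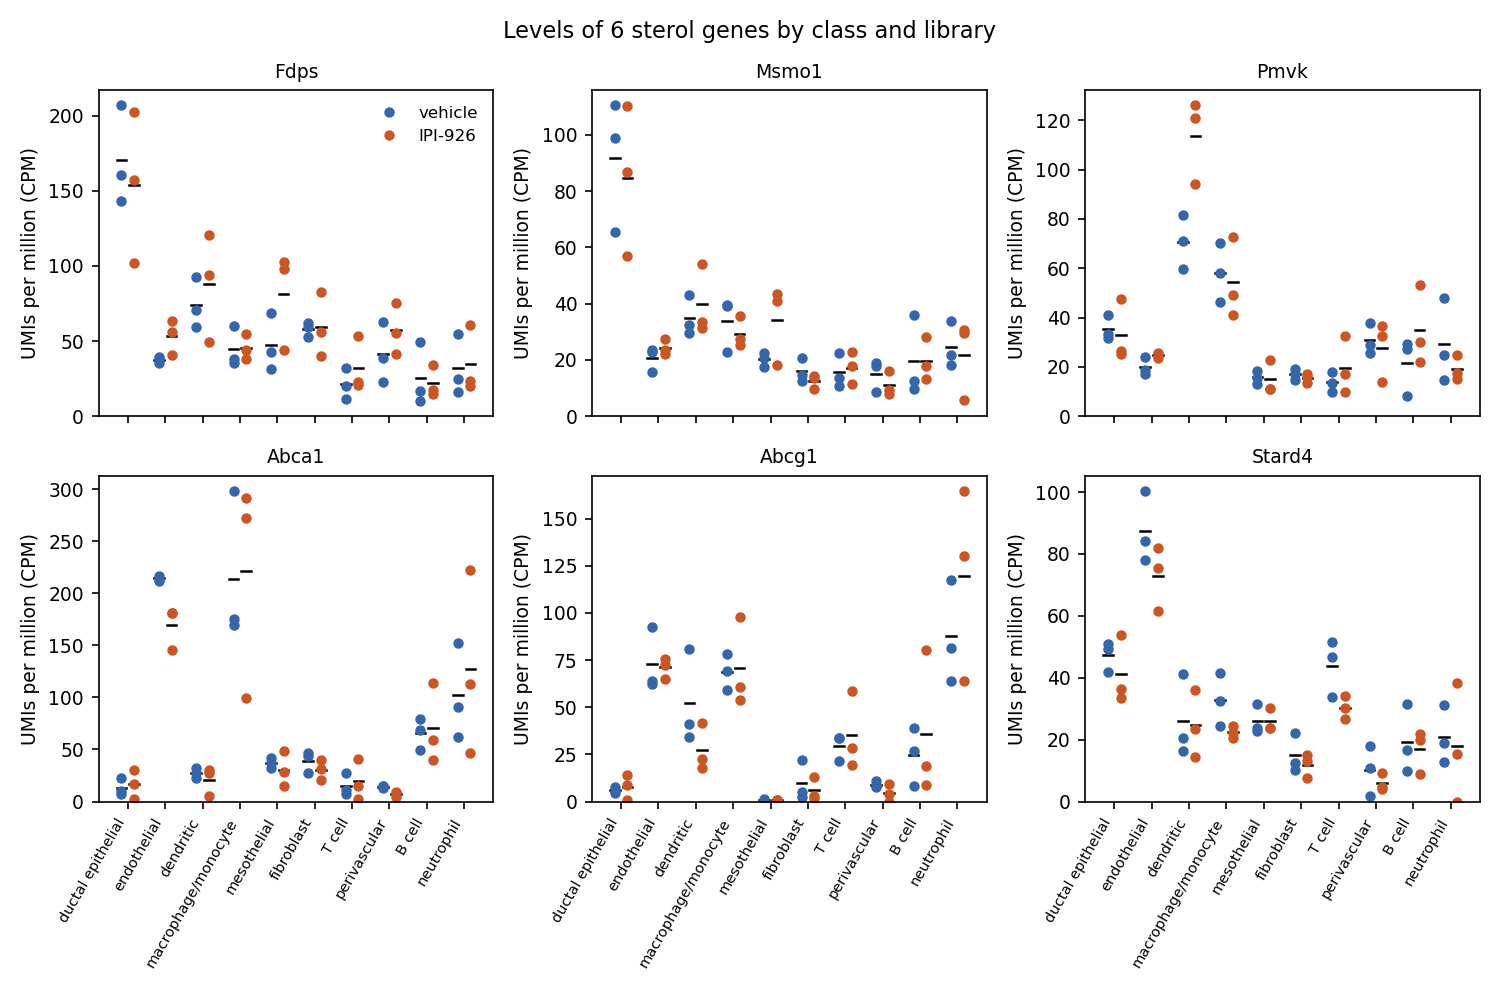
Levels of Fdps, Msmo1, Pmvk, Abca1, Abcg1 and Stard4 (1 panel each, CPM on the vertical axis) by cell class, with 1 point per library and a line at the mean. Fdps and Msmo1 peak in ductal cells, Pmvk in dendritic cells, Stard4 in endothelial cells, Abca1 in macrophages and endothelial cells and Abcg1 in neutrophils, endothelial cells and macrophages.

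Of the 124 called differences, 52 passed the threshold under every alternative and none changed sign. In ductal cells these held for 18 members, among them Fdps, Fdft1, Sqle, Lss, Msmo1, Tm7sf2, Srebf1, Srebf2, Scap and Stard4, and the count of members higher there was 22 or 23 when any 1 library was left out. None of the 3 calls of a lower level in ductal cells, for Abca1, Abcg1 and Ggps1, passed in every alternative. Abca1 and Abcg1 passed in every alternative in endothelial cells, macrophages and neutrophils, and Stard4 in endothelial cells. For macrophages the same held for Mvd, Pmvk, Insig1 and Ebp, and for dendritic cells for Pmvk, Idi1, Cyp51, Srebf2 and Insig2.

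As a description of which genes rose and fell in level together over the 60 sums of class and library, each member was set against the summed level of the enzymes other than itself. The sums of 1 library share a tumour and their depth differs, so no test was made. Fdps tracked the other enzymes most closely (Pearson's r 0.799, Spearman's rho 0.762), then Msmo1 (0.75 and 0.639), Idi1 (0.695 and 0.684), Hmgcs1 (0.683 and 0.626), Fdft1 (0.682 and 0.68) and Cyp51 (0.679 and 0.689). Sc5d (0.331 and 0.31), Pmvk (0.31 and 0.309) and Insig2 (0.072 and 0.081) were weakly related to them. Ggps1 (-0.156 and -0.266), Abca1 (-0.375 and -0.39) and Abcg1 (-0.369 and -0.36) were the members with negative values.

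Ductal cells were not uniform. A ductal cluster led by the gastric-type genes Agr2, Tff1 and Gkn1 had summed shares of 11.02, 11.4 and 12.6 per 10000 UMIs in vehicle and 12.4, 8.66 and 13.7 in IPI-926 libraries. A cluster led by Gc, Csf2 and Krt17, a basal-type keratin, had 10.996, 15.02 and 12.8 in vehicle and 12.98, 14.6 and 9.22 in IPI-926 libraries, so neither of these clusters was higher throughout. A cluster led by Tff3 and Spink4 had 19.3 in 38 cells of vehicle replicate 3 and 14.2 in 615 cells of IPI-926 replicate 3, where it made up 90.6% of ductal cells. The gastric-type cluster made up 69.9%, 49.7% and 49.3% of ductal cells in vehicle and 1.86%, 78.6% and 5.74% in IPI-926 libraries. A cluster of 1518 cells, which took the ductal name on 4 of 14 markers, had none of them among its 10 leading genes, which include Pvt1, Mcpt8 and the T cell receptor gene Trbc1. It made up 93.8% of the ductal cells of IPI-926 replicate 1, 27.9% of vehicle replicate 2, 13.2% of IPI-926 replicate 2 and 0.74% to 1.62% of the others. Its summed share was 14.5 and 12.6 in vehicle replicates 2 and 3 and 10.5 and 9.39 in IPI-926 replicates 1 and 2, so the ductal values of IPI-926 replicate 1 are mostly its values. The mix of ductal clusters moved with the libraries, and its part in the ductal values was not tested.

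Macrophage clusters differed more evenly. A cluster led by Mmp12, the macrophage elastase, and Arg1 had summed shares of 8.62, 11.2 and 9.68 per 10000 UMIs in vehicle and 8.99, 9.38 and 10.99 in IPI-926 libraries. A cluster of monocyte type led by Ly6c2 was lower in every library, at 7.27, 8.56 and 7.11 in vehicle and 6.34, 7.16 and 6.39 in IPI-926 libraries. IPI-926 replicate 3 supplied 87.9% of the cells of the Ly6c2 cluster and 22 cells of the Mmp12 cluster. It also held 1606 of 1616 cells of a cluster led by Ccl8 and Ms4a7, with a share of 6.27. A cluster led by Alox15, Fcna and Marco had 6.30, 7.17 and 7.33 in vehicle and 7.22 and 7.05 in IPI-926 replicates 1 and 2.

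The main treatment question was whether the sterol genes changed within each cell class after IPI-926. None of 214 member and class tests was called by edgeR, and DESeq2 and limma-voom also called none. Over the same 10 classes 3 of 94188 gene tests were called (0.00319%). At an unadjusted p under 0.05 there were 8 of 214 (3.74%), 4 lower and 4 higher, against 3.15% of all genes. In 13 (6.07%) all IPI-926 libraries were below all vehicle libraries, against 4.51% of all genes, and in 3 (1.40%) all were above, against 3.95%. The smallest adjusted p of a member was 0.896. On simulated counts the same test recovered 0% of seeded log2 changes of 1 in ductal cells, fibroblasts and all cells together. It recovered 1.03% in macrophages and monocytes, 2.08% in mesothelial cells, and at most 27.3%, in B cells. For seeded log2 changes of 2 it recovered 0% in ductal cells, 2.08% in fibroblasts, 1.04% in all cells, 44.4% in macrophages and 96.4% in B cells. The lack of a call therefore does not show, in any class, that the genes were unchanged.

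**Figure D4:**
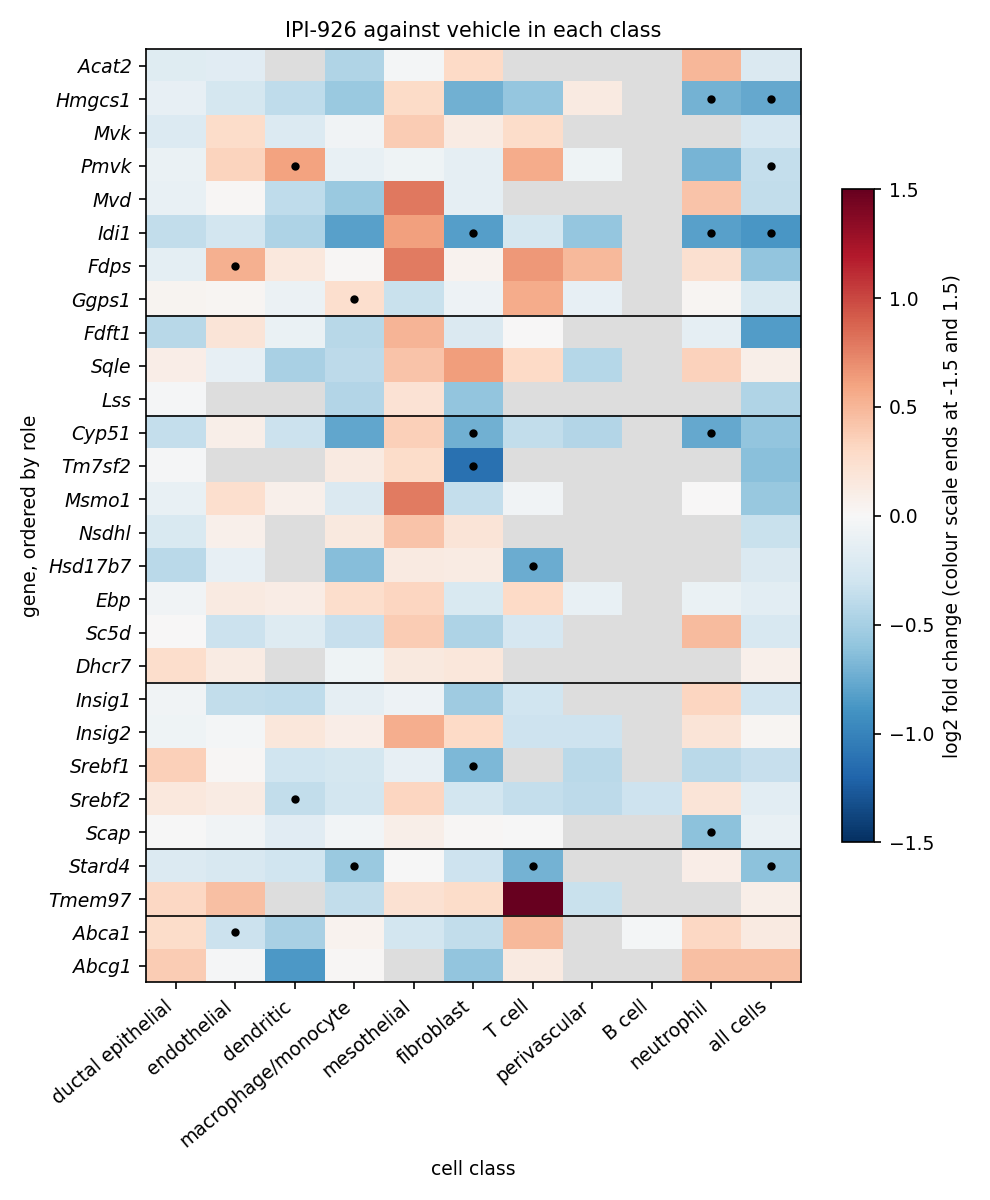
Log2 fold change (IPI-926 over vehicle) of each of the 28 genes (rows) in each class and in all cells together (columns), with colours cut at 1.5 in both directions, grey where a gene was too low to test and a dot where the 3 libraries of each group do not overlap. The fibroblast, macrophage, dendritic (16 of 21 below 0), perivascular (10 of 12) and all-cell columns lean negative, and the mesothelial column leans positive. Ductal cells have 19 of 28 below 0 with a median near it, and no gene passes the adjusted test.

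Fibroblasts, a cell type known to receive Hedgehog signals from pancreatic tumour cells, had the only class share of all 28 genes whose groups did not overlap. The summed share was 6.63, 7.40 and 7.33 per 10000 UMIs in vehicle and 5.49, 5.77 and 6.61 in IPI-926 libraries, a mean of 7.12 ± 0.425 against 5.96 ± 0.580 (SD, n = 3 each; ratio 0.837). The nearest libraries differed by little, 6.63 against 6.61, and the groups overlapped when the share was averaged over cells (lowest vehicle 6.38, highest IPI-926 6.68). Without the cluster that only IPI-926 replicate 3 held, its value was 5.84, from 46 of its 1990 fibroblasts. The fibroblast values of that library are therefore mostly those of this cluster. Under single other settings the groups of 3 more classes did not overlap: neutrophils with the enzymes alone (lowest vehicle 2.90, highest IPI-926 2.66), T cells without clusters of 1 library (lowest vehicle 6.45, highest IPI-926 6.25) and endothelial cells with the share averaged over cells (9.89 and 9.69). By gene, 18 of 28 members had a log2 fold change below 0 (64.3%, against 48.3% of all genes), with a median of -0.22, where the median of all genes was 0.02. In 4 of 28 (14.3%, against 5.68% of all genes) every IPI-926 library was below every vehicle library.

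These 4 fibroblast genes were Srebf1, Idi1, Cyp51 and Tm7sf2. Srebf1, which codes for a SREBP, stood at 16.6, 18.9 and 20.5 CPM in vehicle and 13.8, 8.71 and 12.04 CPM in IPI-926 libraries (log2 fold change -0.67, SE 0.26, edgeR p 0.0365, adjusted p 0.896). Idi1 stood at 17.6, 26.7 and 12.6 CPM in vehicle and 11.8, 12.2 and 8.67 CPM in IPI-926 libraries (-0.83, SE 0.35, edgeR p 0.0492, adjusted p 0.896). Both groups were separate for each gene, by a wider gap for Srebf1 than for Idi1. Cyp51 stood at 60.8, 75.1 and 92.5 CPM in vehicle and 55.6, 54.0 and 29.9 CPM in IPI-926 libraries (-0.72, SE 0.31). Tm7sf2 was low, at 2.38, 3.16 and 2.90 CPM in vehicle and 1.54, 0.871 and 1.29 CPM in IPI-926 libraries (-1.11, SE 0.49). Hmgcs1 overlapped, at 52.3, 73.1 and 42.0 CPM in vehicle and 42.5, 34.0 and 25.6 CPM in IPI-926 libraries (-0.72, SE 0.30).

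Removing the fibroblast cluster of IPI-926 replicate 3 left 46 fibroblasts in that library. Idi1 then stayed at -0.79, while Srebf1 moved to -0.44 and Hmgcs1 to -0.40. Whether the groups of single genes stayed separate without this cluster was not tested. Leaving out that library whole gave -0.67 for Srebf1, -0.68 for Idi1 and -0.53 for Hmgcs1. Ebp, the member of highest mean level in fibroblasts, stood at 95.5, 58.1 and 107 CPM in vehicle and 59.8, 95.0 and 68.7 CPM in IPI-926 libraries, with overlap. Other measures also varied over the fibroblast libraries, and the groups overlapped in each. Summed ductal markers were 346, 140 and 474 CPM in vehicle and 148, 131 and 129 in IPI-926 libraries, and immediate-early genes 6730, 4139 and 6848 against 3892, 5258 and 1307. Cell division genes were 60.1, 468 and 24.5 CPM against 218, 62.5 and 1384, and median depth 11080, 22310 and 10033 UMIs a cell against 25081, 20680 and 39960. Their part in the sterol gene values was not tested.

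Hedgehog feedback genes, the usual readout of Smoothened inhibition, were measured in the same fibroblasts. Gli1, the transcription factor gene that Hedgehog signalling switches on, stood at 9.97, 10.6 and 11.8 CPM in vehicle and 0.421, 1.74 and 0.177 CPM in IPI-926 libraries (log2 fold change -4.79, SE 0.81, edgeR p 0.0006237, adjusted p 0.896). Ptch1, the Hedgehog receptor gene and feedback target, stood at 30.9, 14.8 and 29.0 CPM in vehicle and 8.70, 8.71 and 2.99 CPM in IPI-926 libraries (-1.94). The groups of both genes were separate, and neither passed the adjusted test. In mesothelial cells, whose sterol genes leaned the other way as given below, 2 Hedgehog feedback genes were high enough to test. Both had every IPI-926 library below every vehicle library (median log2 fold change -2.28), and neither passed the adjusted test. Whether the Hedgehog and sterol gene values are linked was not tested.

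Macrophages and monocytes leaned the same way with more overlap. Of the 28 members, 20 had a log2 fold change below 0 (71.4%, against 47.0% of all genes), with a median of -0.24. Stard4 was the member whose IPI-926 libraries all lay below vehicle, at 21.6, 34.96 and 28.4 CPM in vehicle and 21.3, 19.3 and 17.1 CPM in IPI-926 libraries (-0.56, SE 0.23, edgeR p 0.0441, adjusted p 1). The gap between the nearest libraries was small. Idi1 (22.5, 51.5 and 48.5 against 22.1, 29.1 and 18.3 CPM, log2 fold change -0.82) and Cyp51 (23.7, 69.2 and 47.5 against 31.8, 31.4 and 18.8 CPM, -0.78) overlapped, with vehicle replicate 1 low. Without IPI-926 replicate 3 the values were -0.50 for Stard4, -0.69 for Idi1 and -0.58 for Cyp51. Ggps1 had all IPI-926 libraries above vehicle by a narrow gap, at 12.7, 14.3 and 14.9 CPM in vehicle and 15.9, 15.1 and 19.1 CPM in IPI-926 libraries (0.26). Separate groups were thus found for 1 of 28 members in each direction. Over the 10 classes 4.51% of all genes lay below and 3.95% above in this way. Abca1, the member with the highest CPM there, overlapped (149, 251 and 153 CPM against 237, 255 and 82.4), as did Ebp (76.2, 55.4 and 85.8 against 67.2, 95.1 and 97.4). Summed ductal markers in these cells were 445, 203 and 486 CPM in vehicle and 168, 188 and 112 CPM in IPI-926 libraries, so every treated library was below every vehicle library. IPI-926 replicate 3 also held most of the Ly6c2 and Ccl8 clusters and few cells of the Mmp12 cluster, as given above. The part of either in the macrophage values was not tested.

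In neutrophils 4 of 21 members tested had every IPI-926 library below every vehicle library (19.0%, against 7.35% of all genes): Hmgcs1, Idi1, Cyp51 and Scap. The members as a whole did not lean down, with 8 of 21 below 0 (38.1%, against 52.5% of all genes) and a median log2 fold change of 0.09. Hmgcs1 stood at 32.2, 26.5 and 31.0 CPM in vehicle and 18.2, 19.9 and 11.2 CPM in IPI-926 libraries (-0.71, SE 0.32, edgeR p 0.0480, adjusted p 0.925). The difference was -0.31 with equal numbers of cells per library and -0.61 without IPI-926 replicate 3. Idi1 stood at 29.1, 13.97 and 13.5 CPM in vehicle and 13.02, 6.51 and 11.2 CPM in IPI-926 libraries (-0.82, SE 0.47, and -0.81 without IPI-926 replicate 3), a gap of under 1 CPM between the nearest libraries. Cyp51 stood at 18.4, 23.1 and 18.3 CPM in vehicle and 14.3, 12.2 and 0 CPM in IPI-926 libraries, and Scap at 13.8, 11.4 and 10.3 against 8.85, 7.72 and 0 CPM. IPI-926 replicate 3 had 182 neutrophils and 2 UMIs of Hmgcs1, and a count of 0 there allows up to 15.8 CPM (3 counts of its UMIs, before scaling), which is above every other library for Scap. For Cyp51 that limit is above the other IPI-926 libraries and below the vehicle libraries, and without IPI-926 replicate 3 its value was -0.58 against -0.76 with it.

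The enzyme share of neutrophils did not overlap (2.90 to 3.08 per 10000 UMIs in vehicle, 1.69 to 2.66 in IPI-926 libraries), while the share of all 28 genes did. The efflux pumps, the members with the highest CPM in neutrophils, overlapped: Abcg1 was 53.7, 87.4 and 65.1 CPM in vehicle and 115, 97.6 and 61.7 CPM in IPI-926 libraries, and Abca1 52.1, 114 and 73.1 against 155, 84.6 and 44.9 CPM. Neutrophils were shallow, with medians of 1010 to 1789 UMIs a cell, and summed ductal markers in them were 2242, 582 and 1366 CPM in vehicle and 667, 1296 and 274 CPM in IPI-926 libraries. Ductal cells had the highest enzyme levels, and the part of ductal RNA in the neutrophil values was not tested.

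**Figure D5:**
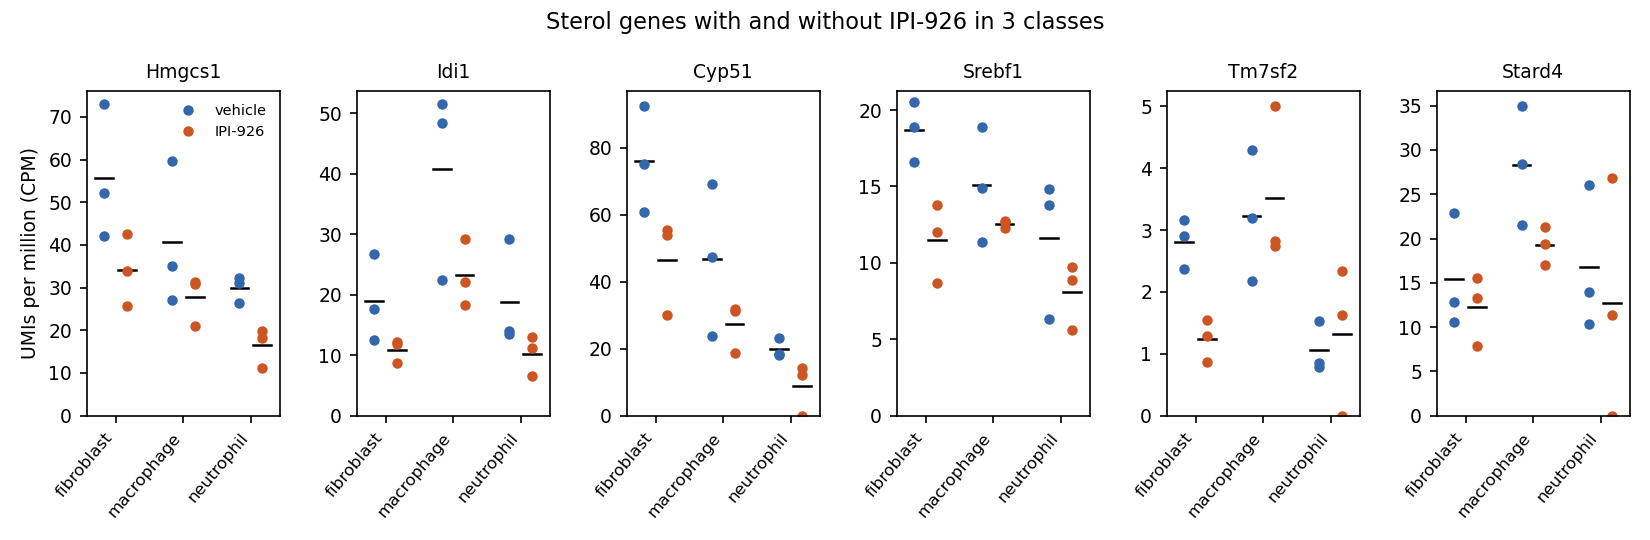
CPM of Hmgcs1, Idi1, Cyp51, Srebf1, Tm7sf2 and Stard4 (1 panel each) in fibroblasts, macrophages and neutrophils, with 1 point per library by treatment. In fibroblasts the 3 IPI-926 points of Srebf1, Idi1, Cyp51 and Tm7sf2 lie below the 3 vehicle points, with a narrow gap for Idi1 (12.2 under 12.6 CPM).

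Mesothelial cells leaned the other way, with 7 of 27 members below 0 (25.9%, against 49.7% of all genes) and a median log2 fold change of 0.28. All 8 enzymes from lanosterol to cholesterol had a positive value there, with a median of 0.34, and none passed the test. Msmo1 stood at 23.0, 21.4 and 18.5 CPM in vehicle and 19.0, 42.0 and 44.9 CPM in IPI-926 libraries (0.78, SE 0.32, edgeR p 0.0453, adjusted p 0.9998). Fdps followed the same libraries, at 70.0, 44.4 and 33.0 CPM in vehicle and 45.8, 106 and 101 CPM in IPI-926 libraries. In both genes IPI-926 replicates 2 and 3 were above all vehicle libraries and replicate 1, with 50 cells, lay among them. Insig2 overlapped at 30.9, 29.5 and 43.5 against 47.2, 39.0 and 65.6 CPM (0.55, SE 0.26), and Hmgcs1 at 64.3, 67.1 and 37.6 against 45.8, 89.3 and 68.8 CPM. Without IPI-926 replicate 3 the values were 0.60 for Msmo1, 0.64 for Fdps and 0.31 for Insig2. Immediate-early genes, which switch on quickly after many stimuli, were 7464, 6361 and 8635 CPM in vehicle and 4657, 5816 and 2815 CPM in IPI-926 mesothelial cells, with no overlap. Summed ductal markers were 1279, 1285 and 1366 CPM against 1049, 1000.3 and 3486 CPM, highest in IPI-926 replicate 3. Their part in the mesothelial values was not tested. Whether mesothelial cells and fibroblasts differ in their response was not tested.

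Ductal cells, where the pathway was highest, showed no separated member (0 of 28 in either direction). Over the 10 classes 4.51% of all genes had every IPI-926 library below vehicle and 3.95% every one above. Of 28 members, 19 were below 0 (67.9%, against 44.3% of all genes), with a median of -0.06. Idi1 stood at 60.4, 75.0 and 86.4 CPM in vehicle and 67.4, 41.6 and 62.9 CPM in IPI-926 libraries (-0.37, SE 0.26), and Fdft1 at 58.8, 53.4 and 87.7 against 55.5, 28.4 and 66.3 CPM (-0.41). Fdps was 158, 144 and 208 CPM in vehicle and 162, 98.6 and 201 CPM in IPI-926 libraries, so IPI-926 replicate 2 was the low library for all 3 genes. Hsd17b7 was 12.4, 13.97 and 15.1 against 15.4, 6.87 and 8.92 CPM (-0.41), and Ebp 92.7, 96.9 and 93.0 against 46.6, 85.5 and 140 CPM, low in IPI-926 replicate 1 and high in replicate 3. Without IPI-926 replicate 3 the values were -0.44 for Idi1, -0.67 for Fdft1 and -0.31 for Hsd17b7.

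Of 26 members tested in endothelial cells, 1 had separate groups in each direction. Over the 10 classes together, 3.95% of all genes had every IPI-926 library above vehicle and 4.51% every one below. Fdps had every IPI-926 library above vehicle, at 46.5, 44.7 and 41.5 CPM in vehicle and 67.9, 48.8 and 75.2 CPM in IPI-926 libraries (0.54, SE 0.20, edgeR p 0.0244, adjusted p 0.979). It was 0.35 with doublets kept. Abca1 had every IPI-926 library below vehicle, at 254, 257 and 246 CPM in vehicle and 218, 217 and 172 CPM in IPI-926 libraries (-0.32). Pmvk was 28.4, 22.6 and 19.7 against 30.6, 30.6 and 27.9 CPM (0.34), overlapping in IPI-926 replicate 3. Without that library the values were 0.41 for Fdps, -0.22 for Abca1 and 0.39 for Pmvk. Stard4, for which endothelial cells were the leading class, overlapped at 98.8, 120 and 90.6 CPM in vehicle and 90.8, 73.8 and 96.8 CPM in IPI-926 libraries.

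In dendritic cells Pmvk, already highest in that class, had every IPI-926 library above vehicle, at 80.1, 62.5 and 65.4 CPM in vehicle and 114, 85.6 and 115 CPM in IPI-926 libraries (0.60, SE 0.26, edgeR p 0.0401, adjusted p 0.999). Srebf2 had every IPI-926 library below vehicle (102, 130 and 101 against 95.9, 80.4 and 86.2 CPM, -0.37). Abcg1 overlapped, at 33.4, 36.5 and 89.2 CPM in vehicle and 16.9, 20.8 and 37.8 CPM in IPI-926 libraries (-0.86, SE 0.44). Without IPI-926 replicate 3 the values were 0.53 for Pmvk, -0.36 for Srebf2 and -1.24 for Abcg1. Of the 21 members tested in dendritic cells, 16 were below 0 (76.2%, against 50.3% of all genes), with a median of -0.30. Separate groups were found for 1 of the 21 above and 1 below, against 3.95% and 4.51% of all genes over the 10 classes.

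In T cells Stard4 (54.2, 55.2 and 41.9 against 28.3, 32.4 and 34.2 CPM, -0.71) and Hsd17b7 (25.01, 14.7 and 16.8 against 8.43, 12.2 and 11.9 CPM, -0.74) had every IPI-926 library below vehicle. These were 2 of 21 members tested in T cells, and 0 of 21 had every IPI-926 library above vehicle. Over the 10 classes the shares of all genes were 4.51% below and 3.95% above. Stard4 was -0.78 without IPI-926 replicate 3, and Hsd17b7 was -0.85 without clusters of 1 library. The most abundant members there overlapped, Ebp at 75.03, 50.9 and 75.4 against 37.4, 107.5 and 97.02 CPM and Srebf2 at 66.7, 93.98 and 50.2 against 68.1, 68.9 and 38.5 CPM. Tmem97 in T cells, at 12.5, 2.59 and 0 CPM in vehicle and 9.04, 16.2 and 20.5 CPM in IPI-926 libraries (1.78, SE 0.81, edgeR p 0.0445, adjusted p 0.9996), overlapped and rested on 0 to 3 UMIs in each vehicle library, where the 0 allows up to 25.5 CPM. In perivascular cells 12 members were high enough to test, of which 10 were below 0 (83.3%, against 49.6% of all genes), with a median of -0.32. Fdps there was 46.98, 79.9 and 28.2 CPM in vehicle and 67.9, 90.6 and 54.8 CPM in IPI-926 libraries (0.49, SE 0.39). Idi1 was 15.7, 59.4 and 32.9 against 33.96, 19.6 and 12.2 CPM (-0.58, SE 0.51). Srebf2 (49.6, 61.6 and 25.9 against 35.9, 39.2 and 24.3 CPM, -0.40) and Ebp (86.1, 38.8 and 58.7 against 41.5, 61.2 and 73.02 CPM, -0.11) overlapped as well. Without IPI-926 replicate 3 the values were 0.60 for Fdps, -0.41 for Idi1 and -0.29 for Srebf2. In B cells 2 members were high enough to test. They were Srebf2 (75.7, 161 and 65.1 against 95.6, 92.4 and 65.1 CPM) and Abca1 (55.5, 95.5 and 91.1 against 111, 43.8 and 61.8 CPM), both with overlap, and without IPI-926 replicate 3 their values were -0.16 and 0.10.

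When all cells of a library were summed, the 28 genes took 10.5, 10.6 and 11.5 per 10000 UMIs in vehicle and 9.05, 8.82 and 7.18 in IPI-926 libraries, a mean of 10.9 ± 0.568 against 8.35 ± 1.02 (SD, n = 3 each; ratio 0.767), with no overlap. In such a sum fewer cells of a type and less RNA per cell cannot be told apart. By gene none of the 28 was called (0.0% of 17852 genes were called), and DESeq2 and limma-voom called none of them. At an unadjusted p under 0.05 there were 2 members, against 3.8% of all genes. In 4 of 28 (14.3%) every IPI-926 library was below vehicle, against 4.34% of all genes, and in 0 every library was above, against 3.02%. A log2 fold change below 0 was found for 22 of 28 (78.6%, against 46.9% of all genes).

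Hmgcs1 and Stard4 were the 2 members with the smallest p in all cells. Hmgcs1 stood at 77.3, 62.8 and 80.6 CPM in vehicle and 56.7, 39.7 and 33.4 CPM in IPI-926 libraries (-0.77, SE 0.26, edgeR p 0.0245, adjusted p 0.9998). Stard4 stood at 42.5, 39.9 and 39.6 CPM in vehicle and 27.8, 30.7 and 21.3 CPM in IPI-926 libraries (-0.61, SE 0.22, edgeR p 0.0266, adjusted p 0.9998). Idi1 stood at 60.2, 52.7 and 72.5 CPM in vehicle and 43.6, 39.8 and 17.5 CPM in IPI-926 libraries (-0.88, SE 0.37). The groups were separate for each of these 3 genes. Fdps (164, 79.6 and 170 against 104, 83.6 and 86.2 CPM, -0.60) and Ebp (79.9, 67.3 and 90.7 against 47.4, 85.7 and 80.1 CPM) overlapped. The cell make-up differed between libraries: ductal cells, the class of highest enzyme level, supplied 41.9%, 39.1% and 70.1% of UMIs in vehicle and 55.7%, 57.2% and 5.98% in IPI-926 libraries, and fibroblasts 2.34%, 18.6% and 3.36% against 8.43%, 1.26% and 56.9%. The ductal share was low in IPI-926 replicate 3 alone, and in the other IPI-926 libraries it lay above vehicle replicates 1 and 2. Unnamed clusters gave 17.2%, 1.59% and 6.31% of UMIs in vehicle and 1.27%, 2.04% and 10.1% in IPI-926 libraries. In vehicle replicate 1 they held 26606 of the 94608 UMIs of the 28 genes. Of these, 23693 came from 254 cells of a cluster described further on. The part of the make-up in these values was not tested. Without IPI-926 replicate 3 the value of Hmgcs1 was -0.61, that of Stard4 -0.47 and that of Idi1 -0.57.

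Genes near the pathway gave no call in any class. In fibroblasts 6 of 9 LXR receptor and target genes were below 0 (median -0.28), with Nr1h3, which codes for an LXR receptor, at -1.20 and the phospholipid transfer protein gene Pltp at -1.06, while the LXR target Arl4c was at 1.32 with separate groups (22.8, 44.7 and 22.2 against 54.5, 50.5 and 119.9 CPM). Nr1h3 in macrophages stood at 5.64, 9.92 and 8.15 CPM in vehicle and 13.3, 11.8 and 17.4 CPM in IPI-926 libraries (0.84). Of 9 genes that process SREBP or degrade sterol-regulated proteins, 4 were below 0 in fibroblasts (median 0.09) and 5 in macrophages (median -0.03). Of 14 genes on the non-sterol isoprenoid branches, 7 were below 0 in fibroblasts (median -0.01) and 3 in macrophages (median 0.10).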

How the data were processed

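The deposited matrices hold UMI counts per gene and cell barcode (Single Cell 3' v3 libraries), raw and not normalized, as the authors deposited them. The headers of the files give cellranger 6.1.2. A different version, Cell Ranger 2.1.1, stands in the notes of the submitters together with mm10 as the build, and the effect of the version on the counts was not tested.

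A barcode entered as a cell with 500 UMIs or more from 300 genes or more, of which mitochondrial genes gave no more than 20%. Doublets scored against simulated doublets were removed (5114 cells), and the rest was clustered with Leiden (scanpy 1.11.5) at resolution 1 without the 28 genes, without sex-linked genes and without batch integration. A cluster took the class with the largest share of its markers detected, with at least 3 detected. This rule was set after an earlier version of it had left the mesothelial cluster without a name.

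UMI counts were summed per library and class, for libraries with at least 20 cells of the class, and tested with edgeR 4.0.16 (TMM scaling, filterByExpr, robust quasi-likelihood test, Benjamini-Hochberg adjustment over all genes tested, threshold 0.05). CPM are UMIs per 1000000 after TMM scaling. The model between classes had library as a term. The steps were tested on simulated counts. DESeq2 1.42.0 and limma 3.58.1 served as alternatives. All 28 genes are named, with the values of each library for the 3 of smallest p and the 2 of highest mean level in a class, and other genes come from listed gene sets. The genes and lists were chosen with earlier results of these data known. A further allele of the genotype, carried by both groups, is not reported here.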

Additional observations from a re-analysis of the deposited data

Results flagged for a closer look

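Clusters that took no class name entered the sums of all cells and no comparison between or within cell classes. In single libraries, 2 of them passed 12.9 per 10000 UMIs, the highest sterol gene share of any named class in a vehicle library. That limit is for whole classes, and single ductal clusters also passed it. Among them were shares of 19.3 (38 cells) in vehicle replicate 3 and 15.02 and 14.5 in vehicle replicate 2. The whole ductal class of IPI-926 replicate 3, at 14.0, passed it too. In a cluster of 135 cells led by Siglech, Cox6a2 and Klk1 the 28 genes took 19.3 per 10000 UMIs in vehicle replicate 2 (21 cells, exact 95% upper bound 21.9), 13.2 in IPI-926 replicate 1 (22 cells, exact 95% interval 11.2 to 15.3) and 28.4 in IPI-926 replicate 3 (79 cells, 26.5 to 30.4). Fdps, the farnesyl diphosphate synthase, stood at 530 CPM (not scaled) in the last of these, Idi1 at 308 and Msmo1 at 288. The other libraries had fewer than 20 cells of it.

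In a second unnamed cluster, of 405 cells with a median of 35251 UMIs, the share was 18.6 per 10000 UMIs in vehicle replicate 1 (254 cells, exact 95% interval 18.4 to 18.9) and 8.95 in vehicle replicate 3 (149 cells). Fdps stood at 493 CPM (not scaled) in vehicle replicate 1 and at 72.4 in vehicle replicate 3. The cluster was not covered at 20 cells by any other library. Within it the high share was seen in vehicle replicate 1 and not in vehicle replicate 3, and the reason was not tested. The intervals cover counting error only.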

How the results depend on the processing

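No paired analysis was possible because the labels number no replicates and the numbers used here follow the order of the deposited samples. Cells of a class in 1 library differ from 20 to 4366, and the classes with few cells limit what could be tested. The log2 ratio of the summed share (IPI-926 over vehicle) kept within 1 SD of the libraries under the alternatives run in 9 of 11 cell groups. For the enzymes alone it was 0.0813 in B cells and 0.0108 in endothelial cells. Leaving out 1 library at a time moved this ratio from -0.14 to 0.05 in B cells, -0.23 to -0.07 in T cells, -0.39 to -0.15 in dendritic cells, -0.29 to 0.01 in ductal cells, -0.18 to -0.05 in endothelial cells, -0.34 to -0.20 in fibroblasts, -0.37 to -0.09 in macrophages and monocytes, 0.08 to 0.42 in mesothelial cells, -0.46 to -0.07 in neutrophils, -0.34 to -0.06 in perivascular cells and -0.44 to -0.28 in all cells.

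No sterol gene was called between treatments under DESeq2, limma-voom, RLE scaling, no filter on low counts, the stricter cell filter (at least 1000 UMIs and 500 genes, at most 10% mitochondrial UMIs), doublets kept, equal cells per library, without clusters of 1 library, or without any 1 library. The count of all genes called over the 10 classes, 3 with edgeR, was 162 with DESeq2, 153 without the filter, 1 with equal cells per library, and 4 to 15 with 1 library left out. In all cells DESeq2 called 120 genes and edgeR 0, and leaving out a library left it at 0. The cause was not tested. Among the 32 single results followed, Srebf2 in B cells (value in all libraries -0.31) ran from -0.49 to 0.26 with 1 library left out, the last without vehicle replicate 2. Abca1 in B cells (-0.02 in all libraries) turned to 0.0337 with limma-voom, 0.15 without the filter, 0.0591 with the stricter cell filter, and ran from -0.54 to 0.19 with 1 library left out, above 0 without vehicle replicate 2 (0.18), vehicle replicate 3 (0.04), IPI-926 replicate 2 (0.19) or IPI-926 replicate 3 (0.10). Fdps in perivascular cells turned to -0.40 with equal cells.

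Between classes, none of the 124 called differences changed sign in any alternative, and 52 passed the threshold in all of them. The vehicle libraries alone lost 43, the IPI-926 libraries alone 53, limma-voom 17, and both no scaling beyond library size and RLE scaling 9. The last 2, and the fit without clusters of 1 library (4 lost), were chosen after seeing the data. The number of sterol genes lower in ductal cells was 1 with the IPI-926 libraries alone against 3 in all, and 2 to 3 with 1 library left out. The number higher there was 22 or 23 with 1 library left out.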

Other observations

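Acinar cells, the enzyme-secreting cells of the pancreas, reached 20 cells in vehicle replicates 2 and 3 alone and entered no test. Tmem97, which codes for a sterol-responsive membrane protein also known as the sigma-2 receptor, stood there at 134 CPM (not scaled, 26 cells) and 169 CPM (189 cells). Its values in the other classes are on another scaling. The summed share of the 28 genes in these acinar cells was 3.54 per 10000 UMIs in vehicle replicate 2 and 10.5 in vehicle replicate 3, and their median depth was 2223 and 26729 UMIs. Plasma cells had summed shares of 2.65 and 4.58 per 10000 UMIs in vehicle replicates 1 and 2 and 3.05 in IPI-926 replicate 1.

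The fatty acid genes that SREBP factors also drive did not go one way over the classes. In macrophages and monocytes 10 of 11 had a log2 fold change below 0 (median -0.41), and in ductal cells 10 of 11 had one above 0 (median 0.30). None passed the test in either class, and the difference between the classes was not tested.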
